A study of Mus musculus with 8 samples.

Results

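The 10 genes described here encode the machinery by which a cell makes peptides and shows them on MHC class I molecules: the heavy chains H2-K1 and H2-D1, their light chain B2m, the peptide pump Tap1 and Tap2, the loading factor Tapbp, the immunoproteasome subunits Psmb8, Psmb9 and Psmb10, and the class I transactivator Nlrc5. They were taken by symbol from gene tables of 41457 genes, and each symbol named 1 row. Poly(A) RNA was sequenced from untreated keratinocytes (KCs), the epithelial cells of the epidermis, which came from the tail skin of adult C57BL/6 mice (C57BL/6J in the study's text) of wildtype genotype and were grown in serum-free medium with 0.06 mM calcium. A total of 4 samples had been cultured for 1 week and 4 for 3 weeks, and cells were passaged when nearly confluent. By the study's text the 4 samples of a time point were independent batches of KCs, and the batches grown for 1 week and for 3 weeks were the same ones. The labels do not say which samples of the time points share a batch, so the tests treat all samples as separate.

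MHC class I molecules present peptides from proteins made inside the cell to CD8 T cells. The proteasome cuts the proteins, the TAP transporter moves the peptides into the endoplasmic reticulum, and a loading complex that includes tapasin, the product of Tapbp, fits them onto a heavy chain paired with beta-2 microglobulin. In cells exposed to interferon, and in leukocytes without it, the catalytic subunits encoded by Psmb5, Psmb6 and Psmb7 are exchanged for those encoded by Psmb8, Psmb9 and Psmb10, which changes the peptides produced. KCs show class I molecules on their surface, and interferon gamma raises them.

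The reads on exons numbered 13896807 to 20026084 per sample at 1 week and 14096649 to 18127283 at 3 weeks. Levels are given as RPKM, the exon reads scaled to exon length and sequencing depth, and changes as the log2 fold change of 3 weeks over 1 week from edgeR with TMM normalization, with its standard error (SE) and an adjusted p-value over all 12590 tested genes. Of these genes, 32.8% passed an adjusted p under 0.05, 15.7% higher and 17% lower at 3 weeks. Over all tested genes the log2 fold change had a median of 0.03 with TMM and of -0.16 on the log2(RPKM + 0.1) scale, so that falls look larger in RPKM. The KC markers Krt5 and Krt14 had 1938 to 6384 RPKM and 4465 to 7628 RPKM. Of 8 KC markers 2 fell, none rose (0) and 6 did not pass, with a median log2 fold change of -0.11. Over all tested genes 17% fell. Krt5, a keratin of basal KCs, fell by 1.32 on the log2 scale (adjusted p = 0.0010), and Itga6, an integrin of basal KCs, by 0.75 (adjusted p = 0.0391). Krt14 did not pass the test (adjusted p = 0.414). Nor did Trp63 (log2 fold change -0.69), Dsg3 (0.003), Col17a1 (0.05), Itgb4 (0.40) and Krt15 (0.47). Of the melanocyte markers, Pmel fell by 2.06 (adjusted p = 0.0266). The part of these marker changes in the changes of the class I genes was not tested. The leukocyte markers Cd8a and Cd207 had 0 reads in all samples, Lyz2 had 14 to 65 reads per sample, Csf1r 13 to 33 and Tyrobp 4 to 19, no sample had more than 1 read of Cd3e or more than 11 reads of Ptprc, and the summed RPKM of 15 leukocyte markers was 2.07 to 5.32 at 1 week and 1.89 to 5.08 at 3 weeks. The markers of fibroblasts summed to 2.51 to 5.22 RPKM over both time points, those of endothelial cells to 0.307 to 0.648 and those of melanocytes to 3.18 to 20.9 at 1 week and 1.26 to 5.50 at 3 weeks. In bulk RNA, a change in the number of cells of a type and a change in RNA per cell cannot be told apart.

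The light chain and the loading factor rose with time in culture, and the immunoproteasome subunits Psmb8 and Psmb10 fell. Of the 10 genes, 9 had enough reads to be tested. B2m, Tapbp and H2-K1 passed the test as higher at 3 weeks, Psmb8 and Psmb10 passed it as lower, and H2-D1, Tap1, Tap2 and Psmb9 did not pass. This is 5 of 9, against 32.8% of all tested genes. With unique exon reads alone it was 3 of 9, where 3985 of 11893 genes passed in all, a similar share. The median log2 fold change of the 9 genes was 0.25, against 0.03 over all tested genes. The RPKM values of the 4 samples at 1 week and the 4 at 3 weeks did not overlap for 3 of the 10 genes, B2m, Psmb8 and Psmb10, as was the case for 37% of all tested genes. B2m was the higher one at 3 weeks (10.8% of all tested genes) and Psmb8 and Psmb10 the lower ones (26.2%).

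**Figure D1:**
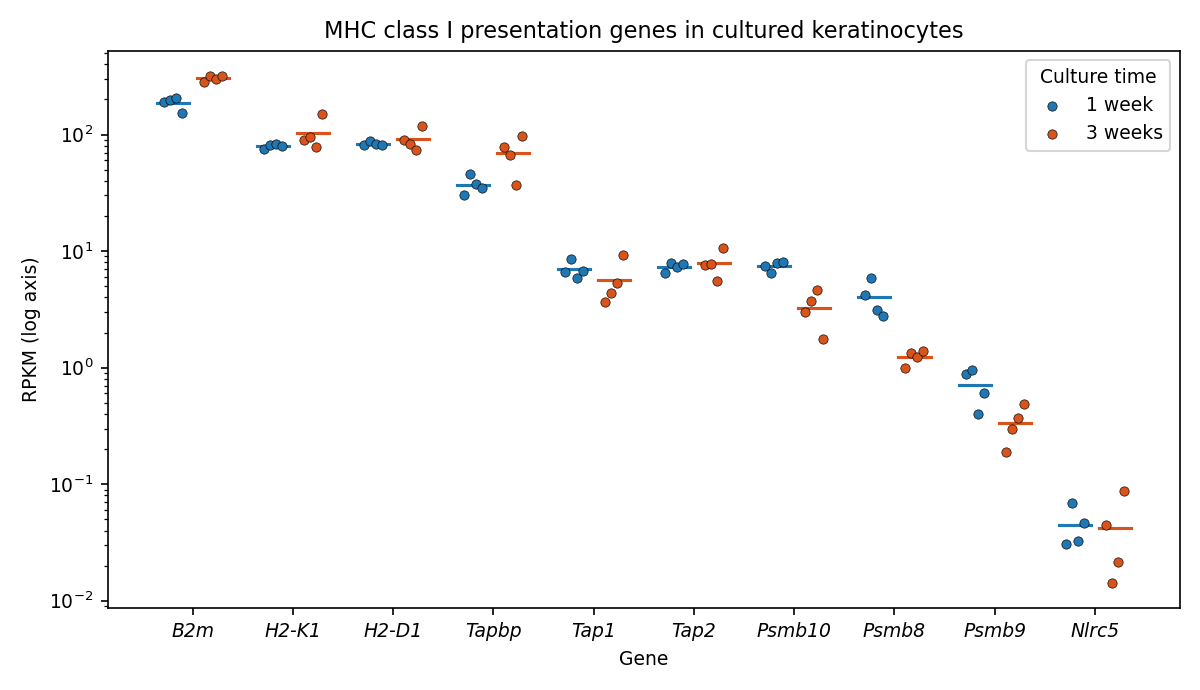
RPKM on a log axis of the 10 genes in each sample, with 4 samples at 1 week (blue) and 4 at 3 weeks (orange), and horizontal lines at the group means. The levels run from 317 RPKM for B2m to 0.0143 for Nlrc5, and the points of the time points separate for B2m, Psmb10 and Psmb8.

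The genes differed widely in level. Mean RPKM at 1 week ran from 188 for B2m through 83.5 for H2-D1, 79.8 for H2-K1, 37.1 for Tapbp, 7.48 for Psmb10, 7.35 for Tap2, 6.95 for Tap1 and 4.00 for Psmb8 to 0.712 for Psmb9 and 0.0448 for Nlrc5. The samples of H2-D1 and H2-K1 overlapped at this time point, as did those of Psmb10, Tap2 and Tap1. At 3 weeks the means ran from 304 for B2m and 103 for H2-K1 to 91.1 for H2-D1, 69.8 for Tapbp, 7.87 for Tap2, 5.63 for Tap1, 3.27 for Psmb10, 1.24 for Psmb8, 0.335 for Psmb9 and 0.0421 for Nlrc5. The samples of H2-K1, H2-D1 and Tapbp overlapped there, as did those of Tap2 with Tap1 and of Tap1 with Psmb10. Summed over the 10 genes, RPKM was 375 to 445 at 1 week and 506 to 703 at 3 weeks.

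B2m encodes beta-2 microglobulin, the light chain shared by all class I heavy chains. Its RPKM was 190, 200, 207 and 153 at 1 week (replicates 1 to 4 in order, as for all genes), and 283, 317, 301 and 316 at 3 weeks. All 4 samples at 3 weeks were above all 4 at 1 week. The means were 188 ± 24.1 and 304 ± 15.98 (SD, n = 4), which differed in a two-sided exact permutation test (p = 0.0286, the smallest that 4 against 4 samples can give). The log2 fold change was 0.86 ± 0.13 (SE, adjusted p = 0.0015), and B2m passed the test in all 20 other settings tried, with values of 0.70 to 0.91. Only 26.1% of its exon reads were counted as unique to 1 place, and all of those crossed an exon junction. Unique reads alone gave 0.89 (adjusted p = 0.00088). The gene lies on chromosome 2 (GRCm38, bases 122147686 to 122153083, plus strand) and overlaps Patl2 on the opposite strand, which had 24 reads over all samples.

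The promoter of B2m is shown because among the 8 genes with a promoter window it alone matched both GAAANNGAA and a kappa B motif. Only the exact letters of each motif were searched, so other forms of an interferon element would be missed. The 250 bases before its annotated start are given 5′ to 3′ (RefSeq, GRCm38, chr2:122147437-122147686, plus strand), with motif matches in capitals.
B2m: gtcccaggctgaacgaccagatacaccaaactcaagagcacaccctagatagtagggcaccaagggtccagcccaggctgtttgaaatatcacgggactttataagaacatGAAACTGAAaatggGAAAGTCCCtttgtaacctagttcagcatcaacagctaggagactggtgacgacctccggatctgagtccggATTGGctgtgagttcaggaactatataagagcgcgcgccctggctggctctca
The first capitals match GAAANNGAA, the core of the interferon-stimulated response element, 139 bases before the start. The next match GGGACTTTC, a kappa B site, read on the opposite strand, 125 bases before the start. The last are a CCAAT box read in reverse, 53 bases before the start. Over both strands, GAAANNGAA occurred in 8.56% of 32851 promoter windows from 250 bases before to 50 bases after a start, and GGGACTTTC in 0.353%. CCAAT boxes occurred in 37.4% of them. In the windows of these 8 genes no matches of different motifs overlapped. A match is a description of these letters only, and no binding was measured.

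H2-K1 and H2-D1 encode the classical class I heavy chains of C57BL/6 mice. The RPKM of H2-K1 was 74.8, 81.1, 83.4 and 80.1 at 1 week and 89.9, 95.6, 78.1 and 149 at 3 weeks. Replicate 4 at 3 weeks stood far above the rest, and replicate 3 lay within the range of 1 week. The rise of 0.52 ± 0.17 on the log2 scale had an adjusted p of 0.0465, just inside the threshold, while the means of 79.8 ± 3.64 and 103 ± 31.5 (SD, n = 4) gave p = 0.114 in the exact permutation test. H2-K1 passed the test in only 4 of 20 other settings, over which the adjusted p ranged from 0.0217 to 0.239. The call was lost when any 1 sample other than replicates 3 and 4 at 3 weeks was left out (adjusted p = 0.0525 to 0.140). Without replicate 4 at 3 weeks the log2 fold change was 0.32 (adjusted p = 0.0261).

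The RPKM of H2-D1 was 81.2, 87.9, 83.5 and 81.5 at 1 week and 89.2, 83.7, 73.7 and 118 at 3 weeks. The time points overlapped, and replicate 4 at 3 weeks was again the highest sample. The log2 fold change of 0.28 ± 0.13 did not pass the test (adjusted p = 0.137), nor in any of 20 other settings, and without replicate 4 at 3 weeks it was 0.16. The ratio of H2-K1 to H2-D1 within a sample was 0.921, 0.922, 0.998 and 0.983 at 1 week and 1.01, 1.14, 1.06 and 1.26 at 3 weeks. The ratios at 3 weeks were all higher, by 0.22 on the log2 scale (exact permutation p = 0.0286, adjusted p = 0.0667 over 7 ratios). With 7 ratios and this smallest possible p, at least 4 ratios would have to reach it before an adjusted p could be as low as 0.05. A value of 0.05 is not under the threshold, so more than 4 would be needed for a ratio to pass. With unique exon reads alone the log2 difference of this ratio was also 0.22, with a higher adjusted p (exact permutation test, adjusted p = 0.1).

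The promoters of H2-K1 and H2-D1 are shown beside each other because the heavy chains are closely related copies. Each line gives the 250 bases before the annotated start, 5′ to 3′ (RefSeq, GRCm38, chr17:34000348-34000597, minus strand, and chr17:35262844-35263093, plus strand), with motif matches in capitals.
H2-K1: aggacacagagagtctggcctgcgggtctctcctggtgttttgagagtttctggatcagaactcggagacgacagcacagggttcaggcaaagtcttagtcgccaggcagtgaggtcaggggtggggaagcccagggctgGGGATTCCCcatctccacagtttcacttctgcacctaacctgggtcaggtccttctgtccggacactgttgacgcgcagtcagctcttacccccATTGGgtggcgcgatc
H2-D1: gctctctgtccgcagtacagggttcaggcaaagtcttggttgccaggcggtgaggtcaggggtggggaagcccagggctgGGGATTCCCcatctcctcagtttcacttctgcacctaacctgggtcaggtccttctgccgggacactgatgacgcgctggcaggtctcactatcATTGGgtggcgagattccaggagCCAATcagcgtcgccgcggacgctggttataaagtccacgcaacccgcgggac
Both held GGGATTCCC, a kappa B site that occurred in 0.353% of all windows, 110 bases before the start of H2-K1 and 170 bases before that of H2-D1. It lay in a run of 47 bases that was identical in both genes. The other capitals are CCAAT boxes in either direction. When the pair was aligned, 87.4% of 190 facing bases were the same. RefSeq lists a further start for H2-K1, with the same kappa B letters 124 bases before it. Neither promoter held the exact letters GAAANNGAA, TTCCNNGAA or TGACGTCA, and other forms of these elements were not searched.

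The coding sequences of the heavy chains were 91.4% identical over 1077 aligned bases. A read of 59 bases, the length sequenced, would be the same in both genes at 5.62% of the positions in H2-K1 and 5.74% in H2-D1. The longest stretch that they share is shown because reads inside it cannot be assigned to one of the pair. It has 91 bases, 738 to 828 of the coding sequence of H2-K1 and 747 to 837 of that of H2-D1 (GENCODE M21).
Shared coding stretch: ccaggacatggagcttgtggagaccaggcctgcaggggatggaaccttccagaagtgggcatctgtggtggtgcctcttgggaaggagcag
Of the exon reads of H2-K1, 97.6% were counted as unique, and of those of H2-D1, 90.1%. With unique reads alone the log2 fold change was 0.50 for H2-K1 (adjusted p = 0.0631) and 0.26 for H2-D1 (adjusted p = 0.185).

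Light chain RNA was higher relative to heavy chain RNA in 3 of the 4 samples at 3 weeks than in any sample at 1 week. The ratio of B2m to the sum of H2-K1 and H2-D1 was 1.22, 1.18, 1.24 and 0.947 at 1 week and 1.58, 1.77, 1.98 and 1.18 at 3 weeks. Replicate 4 at 3 weeks lay within the range of 1 week, and the mean log2 difference of 0.49 did not pass the test (exact permutation p = 0.0857, adjusted p = 0.15). Without that sample the difference was 0.63 (adjusted p = 0.05, which is not under the threshold). With unique exon reads alone and all samples it was 0.54 (exact permutation test, adjusted p = 0.0667).

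Tapbp encodes tapasin, which bridges TAP and the heavy chain and helps to select peptides. Its RPKM was 30.0, 46.2, 37.5 and 34.7 at 1 week and 78.3, 67.4, 36.9 and 96.8 at 3 weeks. Replicates 1, 2 and 4 at 3 weeks were above every sample at 1 week, whereas replicate 3 was not. Tapbp rose by 1.06 ± 0.24 on the log2 scale (adjusted p = 0.0099), the largest rise among these genes, and the exact permutation test of the means gave p = 0.0857. Tapbp passed the test in 19 of 20 other settings, and missed it in limma on log2(RPKM + 0.1) with an adjusted p of 0.0526. It lies on chromosome 17 (bases 33915899 to 33929292) and overlaps Zbtb22 on the same strand, which had 5430 reads against 26372 of Tapbp. Of the Tapbp reads 83.8% were unique, and these gave a log2 fold change of 1.05.

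Tap1 and Tap2 encode the subunits of the peptide transporter. The RPKM of Tap1 was 6.66, 8.53, 5.93 and 6.70 at 1 week and 3.63, 4.33, 5.28 and 9.29 at 3 weeks. Replicates 1, 2 and 3 at 3 weeks were below every sample at 1 week, and replicate 4 was above every one. The log2 fold change of -0.14 ± 0.27 did not pass the test (adjusted p = 0.721). Without replicate 4 at 3 weeks it was -0.46 (adjusted p = 0.106), and without replicate 1 at 3 weeks it was 0.026, so its direction was not fixed by these samples.

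The RPKM of Tap2 was 6.46, 7.94, 7.30 and 7.69 at 1 week and 7.58, 7.71, 5.51 and 10.7 at 3 weeks. The time points overlapped, with replicate 4 at 3 weeks the highest sample, and the log2 fold change of 0.25 ± 0.17 did not pass the test (adjusted p = 0.284). The ratio of Tap1 to Tap2 was 0.813 to 1.07 at 1 week. It was 0.478, 0.562, 0.959 and 0.868 at 3 weeks, a log2 difference of -0.45 (exact permutation p = 0.143, adjusted p = 0.167).

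Psmb8, Psmb9 and Psmb10 encode the catalytic subunits of the immunoproteasome. The RPKM of Psmb8 was 4.19, 5.93, 3.13 and 2.76 at 1 week and 1.00, 1.33, 1.22 and 1.39 at 3 weeks. All samples at 3 weeks were lower, with means of 4.00 ± 1.42 and 1.24 ± 0.173 (SD, n = 4, exact permutation p = 0.0286). The fall of Psmb8 was the largest among these genes, -1.53 ± 0.27 on the log2 scale (adjusted p = 0.0029), and it passed the test in all 20 other settings, with values from -1.67 to -1.12. The values rest on 123 to 334 reads per sample at 1 week and 51 to 60 at 3 weeks. Of the reads, 52.2% were unique, and these gave -1.58.

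The RPKM of Psmb10 was 7.46, 6.46, 7.97 and 8.05 at 1 week and 3.02, 3.71, 4.61 and 1.76 at 3 weeks. All samples at 3 weeks were lower, and replicate 4 was the lowest of all 8. The log2 fold change was -1.005 ± 0.295 (adjusted p = 0.029), and the exact permutation test of the means gave p = 0.0286. Psmb10 passed the test in 15 of 20 other settings, with a fall of at least 0.79 on the log2 scale in each. It did not pass without replicate 3 or 4 at 1 week (adjusted p = 0.0636 and 0.0691) or without replicate 1 or 2 at 3 weeks (0.0768 and 0.0599). Of its reads, 33.6% were unique, all of them across exon junctions, and with these alone the adjusted p was 0.0633. The gene lies apart from the others of its kind, on chromosome 8 (bases 105935735 to 105938444, minus strand).

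Psmb9 was the lowest of the subunits, with 13 to 72 reads per sample. Its RPKM was 0.890, 0.955, 0.400 and 0.604 at 1 week and 0.191, 0.299, 0.366 and 0.484 at 3 weeks. The time points overlapped through replicate 3 at 1 week, and the log2 fold change of -0.94 ± 0.38 did not pass the test (adjusted p = 0.0895). It passed in 1 of 20 other settings, limma on log2(RPKM + 0.1), with an adjusted p of 0.0448.

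The promoter of Psmb8 is shown because among the same 8 genes it alone held the STAT motif TTCCNNGAA, which 4.81% of all windows held. The 250 bases before the start are given 5′ to 3′ (RefSeq, GRCm38, chr17:34197945-34198194, plus strand), with the match in capitals 97 bases before the start. The gene model used for counting begins earlier, at base 34197721, so these 250 bases lie inside it. The 250 bases before the RefSeq starts of Tapbp, H2-D1 and Psmb9 also lie inside their counted gene models. The RefSeq starts of Psmb10, Tap1 and B2m lie inside theirs too, but the 250 bases before them only in part.
Psmb8: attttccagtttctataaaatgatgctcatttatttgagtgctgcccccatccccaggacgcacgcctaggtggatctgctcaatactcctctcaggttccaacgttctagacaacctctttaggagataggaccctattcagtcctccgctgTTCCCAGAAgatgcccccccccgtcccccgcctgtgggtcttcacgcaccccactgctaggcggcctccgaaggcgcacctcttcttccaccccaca
RefSeq windows were at hand for 8 of the 10 genes, and Tap2 and Nlrc5 had none. The window of Psmb10 held none of the 6 motifs, and that of Tapbp held a pair of CCAAT boxes. Tap1 and Psmb9 are read in opposite directions from starts 226 bases apart, so that their windows overlap, and both hold the same single CCAAT box. TGACGTCA, the cAMP response element, was in none of the member windows and in 1.79% of all windows.

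**Figure D2:**
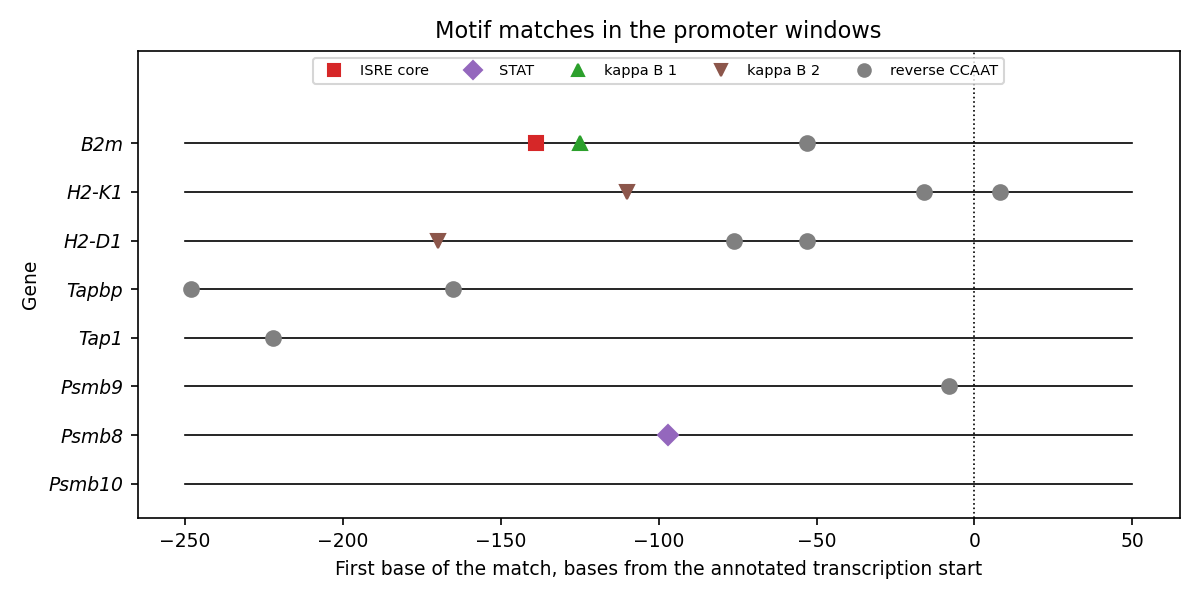
Motif matches in the RefSeq promoter windows of 8 genes, from 250 bases before to 50 bases after the annotated transcription start (dotted line); symbols mark the first base of each match. Kappa B letters lie 110 to 170 bases before the start in B2m, H2-K1 and H2-D1, and the window of Psmb10 holds no match.

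Psmb9, Tap1, Psmb8 and Tap2 are neighbours within 34334 bases of the MHC on chromosome 17 (GRCm38, bases 34181988 to 34216321), and 7 of the 10 genes are on this chromosome. Psmb8 fell, whereas Tap1 and Tap2 on either side of it did not pass the test, and the difference between these changes was not tested. The gene models of Psmb9 and Tap1 overlap by 212 bases on opposite strands. Whether strand was used in counting is not given, so reads there cannot be told apart, although 96.3% of Psmb9 reads and 97.6% of Tap1 reads were counted as unique.

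Each immunoproteasome subunit was then set against the constitutive subunit whose place it takes. At 1 week, Psmb5, Psmb6 and Psmb7 had 63.3 to 174 RPKM and at 3 weeks 46.3 to 201 RPKM. None of the 3 passed the test, with log2 fold changes of 0.20 ± 0.24 for Psmb5, -0.12 ± 0.21 for Psmb6 and -0.05 ± 0.20 for Psmb7. The ratio of Psmb8 to Psmb5 was 0.0240, 0.0373, 0.0214 and 0.0199 at 1 week and 0.00664, 0.00751, 0.00607 and 0.0143 at 3 weeks. All samples at 3 weeks were lower, by 1.61 on the log2 scale or 3.06-fold (exact permutation p = 0.0286, adjusted p = 0.0667 over the 7 ratios).

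The ratio of Psmb10 to Psmb7 was 0.0985, 0.0923, 0.126 and 0.126 at 1 week and 0.0618, 0.0608, 0.0610 and 0.0379 at 3 weeks. All samples at 3 weeks were again lower, by 2.02-fold (exact permutation p = 0.0286, adjusted p = 0.0667). The ratio of Psmb9 to Psmb6 was 0.00462 to 0.0110 at 1 week. It was 0.00298, 0.00379, 0.00373 and 0.00890 at 3 weeks, so that the time points overlapped through replicate 4 (log2 difference -0.76, exact permutation p = 0.143, adjusted p = 0.167). With 1 added to each RPKM the log2 difference was -0.02 (exact permutation test, adjusted p = 0.943). Every RPKM value of Psmb9 was below 1 (at most 0.955), so this addition by itself flattens the ratio. Psme1 and Psme2, the subunits of the interferon-inducible proteasome activator, had log2 fold changes of 0.05 ± 0.16 and 0.21 ± 0.21, and their ratio of Psme2 to Psme1 was 1.99 to 2.11 at 1 week and 1.81 to 2.88 at 3 weeks (exact permutation p = 0.429). None of the 7 ratios had an adjusted p under 0.05, while 3 had an unadjusted exact permutation p of 0.0286.

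**Figure D3:**
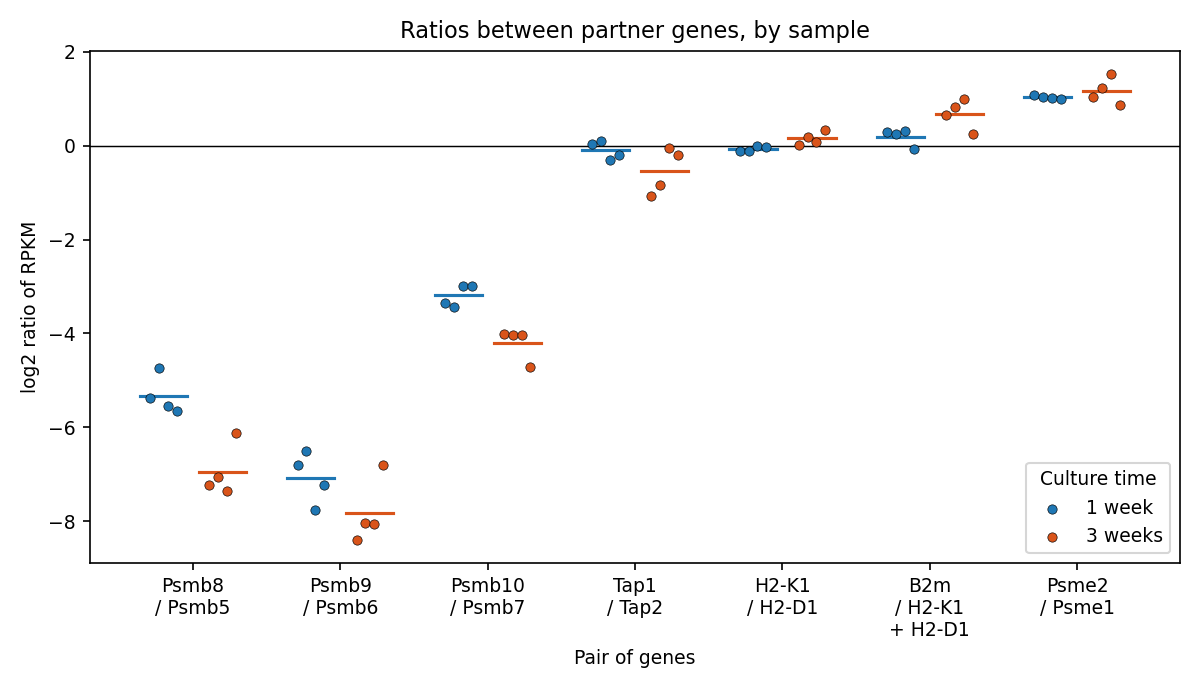
log2 ratio of RPKM within each sample for 7 pairs of partner genes at 1 week (blue, n = 4) and 3 weeks (orange, n = 4), with lines at the means. The ratios of Psmb8 to Psmb5 and of Psmb10 to Psmb7 are lower in every sample at 3 weeks, and that of H2-K1 to H2-D1 is higher in every one.

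**Figure D4:**
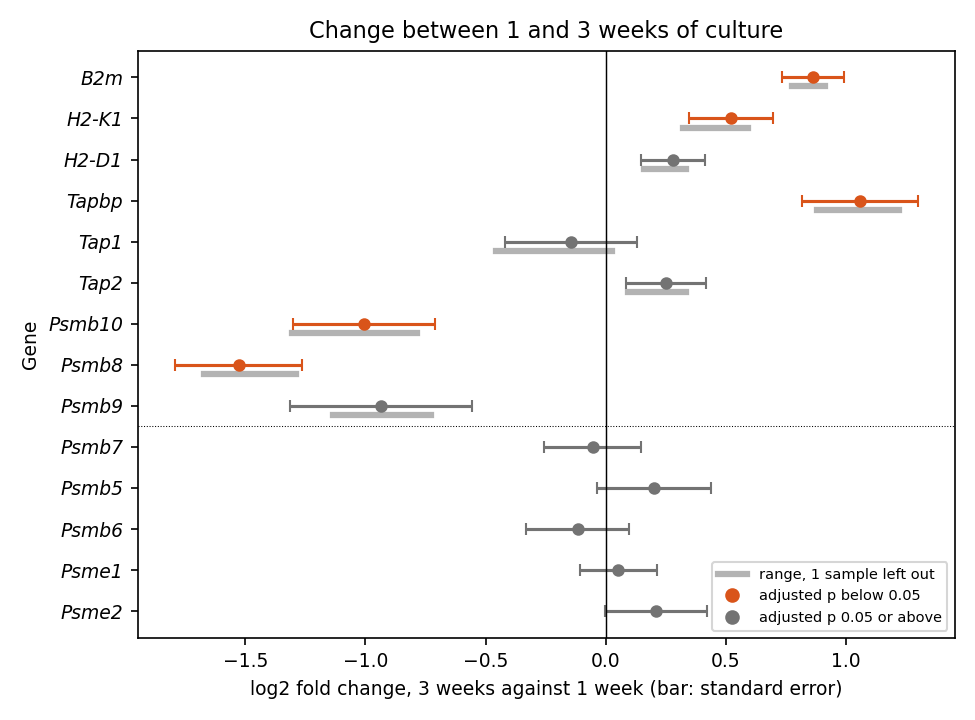
log2 fold change of 3 weeks over 1 week with its SE for the 9 tested genes (above the dotted line) and 5 constitutive or activator subunits (below it), coloured where the adjusted p was under 0.05. Grey bars give the range when 1 sample is left out, which crosses 0 for Tap1.

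Nlrc5 encodes the transactivator of class I genes. Between 2 and 12 reads per sample were counted on it, too few to pass the filter on low counts, and its RPKM was 0.0309, 0.0686, 0.0328 and 0.0467 at 1 week and 0.0442, 0.0143, 0.0215 and 0.0882 at 3 weeks. A count of 3 reads corresponds to 0.0171 to 0.0246 RPKM in these libraries, and the time points overlapped.

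The other genes of the pathway were read from lists, with rises and falls on the log2 scale. Of 18 other class I and class I-like genes 10 were tested, with log2 fold changes from -0.91 for H2-M3 to 1.06 for Cd1d1 and a median of -0.38. None of them (0) passed edgeR's test, against 32.8% of all tested genes. In edgeR 3 had an unadjusted p under 0.05, DESeq2 called 1 higher and 1 lower, and limma on log2(RPKM + 0.1) called 3 lower. Cd1d1 had only 17 to 52 reads per sample. The share of exon reads counted as unique differed widely, with 13.3% for H2-T10, 26.7% for H2-T23 and 98.8% for H2-M3. Among 12 genes of peptide loading and trimming, 1 rose and 4 fell, against 15.7% and 17% of all tested genes. Their median was 0.06. Lnpep, an aminopeptidase of endosomes, rose by 0.53 ± 0.15 (adjusted p = 0.0262), although its RPKM overlapped between the time points (3.12 to 4.21 and 3.37 to 5.69) and limma on log2(RPKM + 0.1) did not call it. Blmh, a cytosolic cysteine peptidase, fell by 1.69 ± 0.16 on the log2 scale (adjusted p = 0.00028), from 21.9 to 29.6 RPKM at 1 week to 5.65 to 7.14 at 3 weeks. Erap1, which trims peptides in the endoplasmic reticulum, fell by 0.84 ± 0.14 (adjusted p = 0.0024), and Lap3, a cytosolic aminopeptidase, by 0.54 ± 0.16 (adjusted p = 0.0288). The remaining fall was Tapbpl, a tapasin-related peptide editor (0.54 on the log2 scale, adjusted p = 0.0409), which is named after its values were seen. The chaperones of the loading complex did not pass, with log2 fold changes of -0.27 for Calr, 0.05 for Canx and 0.07 for Pdia3.

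Among 12 constitutive subunits, activators and assembly factors of the proteasome, none rose (1, Pomp, had an unadjusted p under 0.05, and DESeq2 and limma called 0 higher), 3 fell and the median was -0.09. For comparison, 17% of all tested genes fell. The 3 that fell here were assembly chaperones of the proteasome core. Psmg1 fell by 1.20 ± 0.21 on the log2 scale (adjusted p = 0.0032), from 17.1 to 21.3 RPKM to 6.18 to 10.1. Psmg2, its partner, fell by 0.96 ± 0.16 (adjusted p = 0.0024) and Psmg3 by 0.68 ± 0.19 (adjusted p = 0.0255). Pomp, which acts in the assembly of both kinds of proteasome, did not pass (0.41 ± 0.17 on the log2 scale, adjusted p = 0.0906).

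Of 16 transcription factors known to act at class I promoters, none rose (0 also at an unadjusted p under 0.05, and with DESeq2 and limma) and 3 fell, with a median of -0.28. The share that fell over all tested genes was 17%, close to that of this list. Creb1 fell by 0.67 ± 0.12 (adjusted p = 0.0039) and Atf1, a related factor, by 0.52 ± 0.14 (adjusted p = 0.0178). Nfyb, a subunit of the factor that binds CCAAT boxes, fell by 0.63 ± 0.19 (adjusted p = 0.0345). Rela and Nfkb1, which bind kappa B sites, had log2 fold changes of 0.21 and -0.52, and Irf1 of 0.07, all without passing the test.

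Of the 6 interferon receptor chains on the list, 5 passed the test as higher at 3 weeks and Ifnlr1 did not (1.07 ± 0.36, adjusted p = 0.0501). In limma on log2(RPKM + 0.1) 3 of them passed, Il10rb, Ifngr1 and Ifngr2. Of 13 genes of interferon reception and signalling, 5 rose and 1 fell, where 15.7% of all tested genes rose and 17% fell. Their median log2 fold change was 0.43, against 0.03 over all tested genes. Il10rb, a chain of the receptor for lambda interferons, rose by 1.02 ± 0.12 (adjusted p = 0.00066), from 6.85 to 7.92 RPKM at 1 week to 11.8 to 14.8 at 3 weeks. The chains of the interferon gamma receptor, Ifngr1 and Ifngr2, rose by 0.96 ± 0.20 (adjusted p = 0.0065) and 0.71 ± 0.14 (adjusted p = 0.0060). The remaining rises, named after their values were seen, were the chains of the type I receptor, Ifnar1 (0.49, adjusted p = 0.0320) and Ifnar2 (0.42, adjusted p = 0.0483). The RPKM of both overlapped between the time points. Socs1, an inhibitor of interferon signalling, fell by 1.08 ± 0.22 (adjusted p = 0.0060), from 1.08 to 1.75 RPKM to 0.535 to 0.655.

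Of the ligands, the alpha interferon genes were not on the list. Ifnb1, Ifnk, Ifne, Ifnl2 and Ifnl3 had 0 reads in all samples, and Ifng had at most 1 read per sample. Tnf was measured at 9.36 to 17.1 RPKM at 1 week and 12.1 to 20.7 at 3 weeks and did not pass the test (log2 fold change 0.51 ± 0.23, adjusted p = 0.116). Of 32 interferon-inducible genes outside the 10, 24 were tested. Among these 1 rose and 1 fell, against 15.7% and 17% of all tested genes. Their median log2 fold change was 0.03. Icam1, an adhesion molecule for leukocytes, rose by 0.88 ± 0.23 (adjusted p = 0.0196), but its RPKM overlapped between the time points and limma on log2(RPKM + 0.1) did not call it. Samhd1, an enzyme that breaks down nucleotides, fell by 0.79 ± 0.15 (adjusted p = 0.0039).

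The interferon-inducible genes varied widely between samples of the same time point. Their log2 CPM, taken relative to the mean of the time point, had a median of 0.64 in replicate 2 at 1 week and of 1.23 in replicate 4 at 3 weeks, and of -0.55 to -0.0011 in the other 6 samples. By RPKM, replicate 2 was the highest sample at 1 week for 20 of the 24 tested genes, against 30.8% of all tested genes, and replicate 4 was the highest at 3 weeks for 21 of the 24, against 38.3%. Isg15, chosen after its values were seen, had 6.46, 15.2, 2.76 and 3.60 RPKM at 1 week and 1.21, 2.33, 1.93 and 11.7 at 3 weeks. Likewise Bst2 had 15.4, 23.7, 12.0 and 8.16 RPKM at 1 week and 12.5, 13.3, 15.0 and 43.7 at 3 weeks.

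Many of the class I genes were highest in the same samples, with smaller deviations. By RPKM, replicate 4 at 3 weeks was the highest of its time point for 8 of the 10 genes, against 38.3% of all tested genes. It was the lowest for 1, Psmb10. Replicate 2 at 1 week was the highest of its time point for 7 of the 10, against 30.8%. On the log2 CPM scale, Psmb8 was highest at 3 weeks in replicate 3 (0.14 above the mean of the time point, against 0.12 in replicate 4). The median of the 9 tested genes, relative to the mean of the time point, was 0.42 in replicate 4 at 3 weeks and 0.09 in replicate 2 at 1 week. When both samples were left out, B2m and Tapbp still passed the test as higher, with log2 fold changes of 0.85 and 0.96, and Psmb8 and Psmb10 as lower, with -1.37 and -0.90. H2-K1 did not pass then (0.28, adjusted p = 0.0849). The part of these samples in the value of H2-K1 beyond this was not tested.

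**Figure D5:**
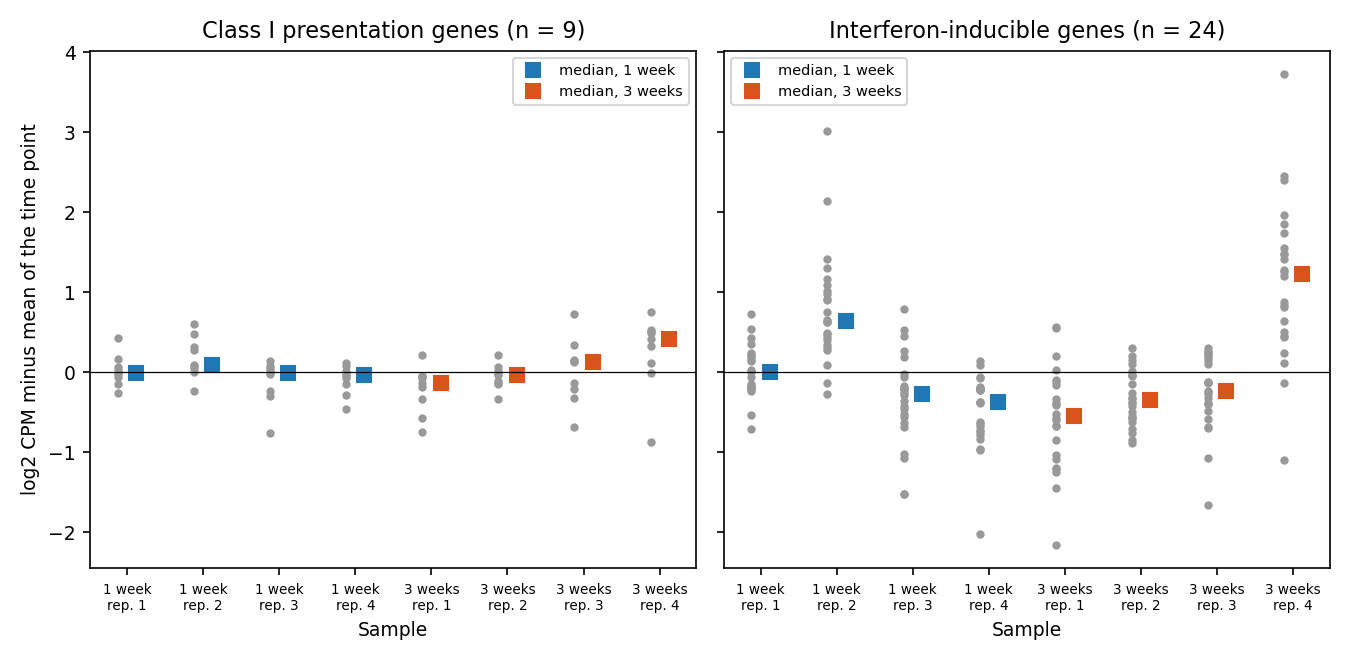
log2 CPM of each gene minus its mean at the same time point, by sample, for the 9 tested class I presentation genes (left) and 24 tested interferon-inducible genes (right); grey points are genes and squares are medians. The interferon-inducible genes stand out in replicate 2 at 1 week (median 0.64) and in replicate 4 at 3 weeks (median 1.23), and the class I genes in the latter (median 0.42).

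MHC class II genes, which present peptides from outside the cell, were low, and 6 of 11 were tested. Of these 2 rose and none fell (0), against 15.7% and 17% of all tested genes. H2-Ab1, the beta chain of the I-A molecule, had 0.834, 0.860, 0.723 and 0.866 RPKM at 1 week and 5.97, 3.61, 7.03 and 2.74 at 3 weeks, a rise of 2.74 ± 0.36 on the log2 scale (adjusted p = 0.0008). H2-DMa, a chain of the molecule that loads class II, rose by 1.79 ± 0.34 (adjusted p = 0.0041), on 10 to 48 reads per sample. H2-DMb1, with 95 to 149 reads per sample, did not pass (0.52 ± 0.19, adjusted p = 0.0693). Nor did H2-Eb1 (0.87, adjusted p = 0.0953) or Cd74 (0.11, adjusted p = 0.878). H2-Aa, the alpha chain that pairs with H2-Ab1, had 0.181 to 0.596 RPKM and did not pass the test (log2 fold change -0.30 ± 0.44, adjusted p = 0.633). No sample had more than 1 read of Ciita, the transactivator of class II genes.

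Genes whose pattern was most like that of the rising class I genes were sought among 8563 genes that averaged 10 CPM (normalized reads scaled to a common library size) or more. The pattern was the mean of the standardized log2 CPM of B2m, Tapbp and H2-K1. Over the 8 samples, the nearest were Wdr44, Trim12c, Calcoco1, App and Rabgef1, with Pearson r from 0.986 to 0.993. All of them were higher at 3 weeks, with log2 fold changes of 0.63 to 2.08, so the likeness includes the difference between the time points. After the mean of each time point had been removed, the nearest were Jund, Patz1, Blnk, Cab39 and Dlg1, with r from 0.931 to 0.970. These values describe 8 samples that share their library scaling, and carry no test.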

How the data were processed

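RNA of KCs cultured for 1 week (n = 4) or 3 weeks (n = 4) was analysed, with groups taken from the deposited labels. The authors sequenced poly(A) libraries in reads of 59 bases, aligned them to GRCm38 and counted them with the CLC Genomics Workbench (version 12, default settings); the annotation release is not given in the sources used here. The deposited counts are whole reads per gene without normalization. The authors also deposited RPKM values, scaled to exon length and mapped reads, written with decimal commas and read as numbers.

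The test used edgeR 4.0.16 (R 4.3.3) on total exon reads (filterByExpr, TMM, glmQLFit and glmQLFTest, unpaired, Benjamini-Hochberg adjustment over all tested genes, threshold 0.05). SEs were derived from the F statistics. Mean RPKM values and log2 ratios were compared by two-sided exact permutation tests over 70 arrangements; ratios were adjusted over 7. Alternatives were DESeq2 1.42.0, upper-quartile normalization, no filter, at least 10 reads in every sample, unique exon reads, all reads on the gene, limma 3.58.1 on log2(RPKM + 0.1) or log2(RPKM + 1), a block on the replicate number, the 6 samples whose file numbers occur at both times with and without a block on that number, and each sample left out in turn. Leaving out both samples with the highest interferon-inducible genes was added after the data were seen. The scripts were tested on simulated data of 12478 genes, 200 of them changed. Of 2-fold changes 29% were recovered and of 4-fold changes 88%, with 7 false calls. In the data far more genes were called, 4127 of 12590, which makes the adjusted threshold less strict. These shares therefore do not carry over to the data. A gene that did not pass may still have changed.

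The genes and lists were chosen with earlier results of these data known. Named were the 10 genes, the genes of the ratios, up to 3 rises and 3 falls with the largest log2 fold change per list, and the 5 genes of most similar pattern, with and without the time-point means. Promoters and coding sequences came from RefSeq and GENCODE M21 tables on GRCm38, read with Python 3.11.15 and Biopython 1.88; figures were drawn with matplotlib 3.10.9. Precision is limited by 13896807 to 20026084 exon reads per sample and by 4 samples per group.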

Additional observations from a re-analysis of the deposited data

Results flagged for a closer look

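Each gene's RPKM and each ratio was screened within its time point for a sample far from the other 3 by Dixon's test, and 2 of 34 sets of values were marked, where chance marks about 1 in 20. Both were in replicate 4 at 3 weeks. Its ratio of Psmb9 to Psmb6 was 0.00890, against 0.00298 to 0.00379 in the other 3 samples. Its ratio of Psmb10 to Psmb7 was 0.0379, against 0.0608 to 0.0618 in the other 3. The sample was thus marked as high for 1 ratio and as low for another. Its ratio of Psmb8 to Psmb5 was also the highest at 3 weeks (0.0143, against 0.00607 to 0.00751) but was not marked. The constitutive partners Psmb5, Psmb6 and Psmb7 had their lowest values at 3 weeks in this sample (97.4, 54.3 and 46.3 RPKM). Replicate 4 was also the sample with the highest interferon-inducible genes at 3 weeks (median 1.23 above the mean of the time point on the log2 scale). The part of these values in the ratios was not tested.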

How the results depend on the processing

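The 5 of 9 tested genes that passed were 3 of 9 with unique exon reads, where 3985 of 11893 genes passed in all, a similar share. They were 4 with the added omission of both interferon-high samples, where 4149 of 12651 genes passed in all. When 1 sample was left out they were 3 to 5 (3 without replicate 3 or 4 at 1 week or replicate 1 or 2 at 3 weeks). B2m and Psmb8 passed in all 20 other settings. The call of H2-K1 was lost in 16 of them, that of Psmb10 in 5 and that of Tapbp in 1, and the causes were not tested. The log2 fold change of Tap1 turned to 0.026 without replicate 1 at 3 weeks (range -0.46 to 0.026 when 1 sample was left out). Genes called in all numbered 3015 to 4861 when 1 sample was left out, and limma on log2(RPKM + 0.1) changed the share of higher calls from 48.0% to 29.9%. The study's text says that the same batches were grown for both times, but the labels do not say which samples share one. The correlation of deviations from the group means over 12590 genes was -0.19, -0.16, -0.11 and 0.24 for samples with the same replicate number, and -0.19, 0.21 and 0.24 for the 3 pairs whose files share a number, so neither numbering was taken as a pairing. With the number as a block, 4 of the 10 genes passed (H2-K1 did not, adjusted p = 0.0977), 2867 genes passed in all, and 12 instead of 21 of the listed pathway genes passed. With the file number as a block, 4 of the 10 genes passed in 6 samples, where H2-K1 came to 0.53 on the log2 scale (adjusted p = 0.103), against 0.57 (adjusted p = 0.0787) in these samples without the block. No ratio passed in any of 12 settings. Outside the block, even 4 ratios at the smallest possible p would give an adjusted p of 0.05, which is not under the threshold. These settings could therefore pass a ratio only if more than 4 reached that p. For the ratios, the block allows too few arrangements for any p under the threshold. Nlrc5 had 2 to 12 reads per sample and Psmb9 13 to 72.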
